A study of Kluyveromyces lactis with 17 samples.

Results

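The measurement described here is the strain by dose interaction in the yeast Kluyveromyces lactis. For each gene it is the change of transcript level from 400 to 15 µg/L nicotinic acid in a sir2Δ strain minus the same change in a wild-type (WT) strain. The libraries were chosen from the labels alone, as all those of both strains at these 2 levels, which are 9 of the 17 libraries of the series. WT at 400 µg/L has libraries numbered 1, 1R and 2, and the counts of 1 and 1R were summed as 1 replicate. That gives 8 of the 16 columns of counts and 2 replicates in each of the 4 groups, which the series text describes as independent biological replicates.

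The WT strain LRY2992 is MATa with SIR2 intact, and the sir2Δ strain LRY2993 is MATα, so the strains differ by SIR2 and by mating type at once. Both strains, the WT included, lack the silent mating-type loci (hmlΔ hmrΔ). Each genotype is 1 strain. Cultures grew overnight at 30 °C in minimal medium without niacin, with 20 g/L glucose and 400 µg/L nicotinic acid. They were then diluted into medium with 15 or 400 µg/L and harvested after 4 h at an optical density near 1. Polyadenylated RNA was sequenced as paired reads of 150 bp. The remaining 8 libraries hold the same strains at 45 and 135 µg/L.

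Nicotinic acid is taken up from the medium and converted by the salvage pathway into NAD+, and K. lactis depends on this supply because it lacks the de novo route that many other yeasts have. Sir2 is a protein deacetylase that consumes NAD+ and, in budding yeasts, keeps chromatin silent at the mating-type cassettes and near the chromosome ends. The series title puts Sir2 at the centre of the transcriptional response to low NAD+, and the interaction measures, gene by gene, whether the response differs between the strains. The roles given below for named genes are those of the S. cerevisiae genes of the same name.

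Levels are given as CPM, that is, as read counts brought to 1 common library size with TMM factors. Changes are log2 fold changes ± SE from edgeR's quasi-likelihood test, and a gene is called at a Benjamini-Hochberg adjusted p under 0.05 over all genes tested. The 9 libraries held 29311784 to 35544957 counted reads. Library 1 of WT at 400 µg/L stood apart, with a Pearson correlation of log2 CPM across genes of 0.961 with 1R and 0.965 with library 2, against 0.997 between 1R and 2. Its log2 level set against the average of the other WT libraries at 400 µg/L differed by gene length. In 5 bins of coding length the median ran from 0.58 for the shortest genes to -0.44 for the longest. Without it the interaction called 1198 genes in place of 899, and 861 were called both ways. Without 1R it called 572. Ribosomal RNA took 2.74% to 7.6% of the counts.

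The labels were checked on SIR2 itself, KLLA0_F14663g, which the gene table used here gives no symbol and which was identified from prior knowledge. It was at 128 and 138 CPM in WT at 400 µg/L and at 144 and 145 CPM at 15 µg/L. In sir2Δ it was at 1.88 and 2.64 CPM at 400 µg/L and at 0.935 and 0.687 CPM at 15 µg/L. The strains therefore did not overlap, while the few reads in sir2Δ were higher at 400 than at 15 µg/L and gave SIR2 a called interaction of its own of -1.59 ± 0.33 (edgeR, adjusted p = 0.0026). HMLALPHA1, the name under which the annotation lists an α mating-type gene, was at 72.1 to 78.4 CPM in the sir2Δ columns and at 0.249 to 1.39 CPM in the WT columns.

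Of 5335 genes, 5224 passed the filter on low counts and 899 of these, 17.2%, were called in the interaction. The interaction was lower in 507 genes (9.71%), where sir2Δ changed less than WT in the upward direction, and higher in 392 (7.5%). With a size of at least 1 log2 unit, 172 genes were lower (3.29%) and 77 were higher (1.47%). Within the strains, WT changed in 1362 genes (26.1%), of which 823 rose (15.8%) and 539 fell (10.3%) at 15 µg/L. The sir2Δ strain changed in 922 genes (17.6%), of which 604 rose (11.6%) and 318 fell (6.09%). Under upper-quartile scaling, which moved the median interaction of all genes from 0.007 to 0.104 log2 units, 619 genes were higher and 393 lower, so the balance of directions depends on the scaling. Leaving out WT replicate 7 at 15 µg/L took the WT count to 841, and leaving out any 1 of the sir2Δ replicates took the sir2Δ count to between 469 and 571.

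The 2 directions were made up differently. Among the 507 lower genes, 350 rose in WT and were not called in sir2Δ, 54 rose in both strains, 50 fell in sir2Δ alone and 25 rose in WT and fell in sir2Δ. The median change at 15 µg/L in this set was 0.74 log2 units in WT and -0.05 in sir2Δ. At 400 µg/L, 406 of them were already higher in sir2Δ than in WT, beside 22.5% of all genes. Among the 392 higher genes, 241 rose in sir2Δ and were not called in WT, 86 fell in WT and were not called in sir2Δ, and 27 fell in WT and rose in sir2Δ. Their median change was 0.56 log2 units in sir2Δ and -0.19 in WT, and 339 of them were lower in sir2Δ than in WT at 400 µg/L, beside 22.3% of all genes. These values share libraries with the contrast that made the calls and are a description.

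**Figure D1:**
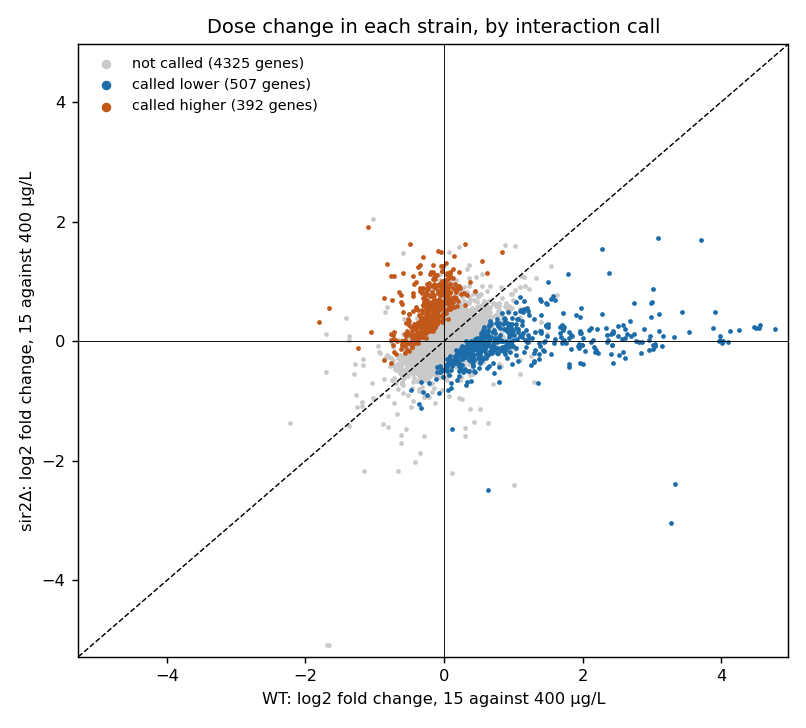
Each point is 1 of 5224 genes, with the log2 fold change at 15 against 400 µg/L nicotinic acid in WT on the x axis and in sir2Δ on the y axis, coloured by its interaction call, and the dashed line marks equal change. The 507 genes called lower lie mostly along the positive x axis, with a median of 0.74 in WT and -0.05 in sir2Δ, and the 392 called higher lie mostly above the centre.

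The salvage and transport genes of NAD+ metabolism included the uptake and the first step of the salvage route. TNA1, which encodes the high-affinity nicotinic acid permease, was at 408 and 439 CPM in WT at 400 µg/L and at 3330 and 3370 CPM at 15 µg/L. In sir2Δ it was at 1860 and 1900 CPM at 400 µg/L and at 2480 and 2510 CPM at 15 µg/L. The rise was 7.91-fold in WT and 1.33-fold in sir2Δ, and no pair of groups overlapped. In bulk samples such as these, a change in the share of cells that express a gene and a change in its level per cell cannot be told apart. Its interaction was -2.57 ± 0.13 (edgeR, adjusted p = 4.39e-10).

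NPT1 encodes nicotinate phosphoribosyltransferase, which carries out the first step of the salvage route from nicotinic acid. It was at 159 and 143 CPM in WT at 400 µg/L and at 1190 and 1230 CPM at 15 µg/L, and in sir2Δ at 726 and 726 CPM and at 1100 and 1190 CPM. The strains stood apart at 400 µg/L and lay close together at 15 µg/L, where their difference, -0.08 log2 units, was not called (edgeR, adjusted p = 0.481). The interaction was -2.35 ± 0.12 (edgeR, adjusted p = 3.65e-10), from a rise of 8.02-fold in WT and 1.58-fold in sir2Δ.

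Of the 15 genes of the salvage and transport list, 6 were lower in the interaction (40%, beside 9.71% of all genes) and 2 higher (13.3%, beside 7.5%), with a list median of -0.11 beside 0.007 over all genes tested. URH1, a uridine and nicotinamide riboside hydrolase, rose from 65 and 64.1 CPM to 125 and 123 CPM in WT. In sir2Δ it was at 138 and 138 CPM at 400 µg/L and at 127 and 131 CPM at 15 µg/L, above every WT column, and its interaction was -1.04 ± 0.11. FUN26, a nucleoside transporter, had an interaction of -0.65, QNS1, the glutamine-dependent NAD synthetase, -0.45, and PNC1, the nicotinamidase, -0.42. QNS1 lost its call without either of 2 sir2Δ columns, and PNC1 lost it under 6 of the alternatives listed at the end, among them upper-quartile scaling. The higher members were YIA6, a mitochondrial NAD+ carrier, at 0.84 and MEU1, of the methionine salvage route, at 0.68. Apart from TNA1 and NPT1, the other 13 genes summed to 1572 and 1546 CPM in WT at 400 µg/L and to 1734 and 1685 CPM at 15 µg/L, and in sir2Δ to 1911 and 1922 CPM and to 1910 and 1854 CPM.

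**Figure D2:**
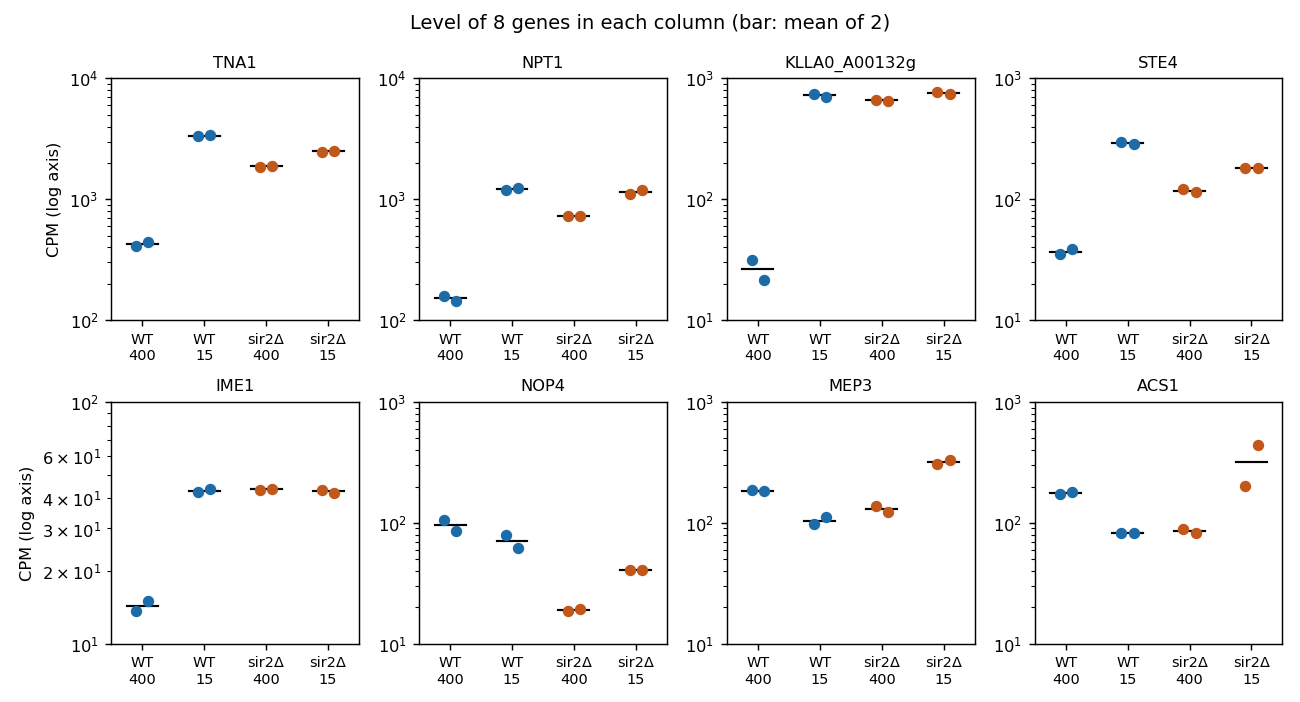
Level in CPM on a log axis of 8 genes in each of the 8 columns, with WT in blue, sir2Δ in orange and a bar at the mean of the 2 replicates. For TNA1, NPT1, KLLA0_A00132g, STE4 and IME1 the WT columns at 400 µg/L are far below the rest, while for NOP4 the sir2Δ columns are the lowest and for MEP3 and ACS1 the strains move in opposite directions.

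Near the chromosome ends more genes rose in WT than in sir2Δ. Counting the 15 genes closest to every end, 178 were tested. At 15 µg/L 100 of these rose in WT, beside 15.8% of all genes, and 13 rose in sir2Δ, beside 11.6%. In the interaction 86 were lower in the interaction (48.3%, beside 9.71% of all genes) and 2 were higher, and without library 1 the lower calls came to 98. The share was greatest in the outermost ranks. Of the 60 genes at ranks 1 to 5, 43 were lower (71.7%), with a median interaction of -1.54, and of the 118 at ranks 6 to 15, 43 were lower (36.4%), with a median of -0.28. At ranks 16 to 30 the lower calls came to 29 of 179, with a median of -0.05. Within the strains, 46 of the 60 outermost genes rose in WT and 2 rose in sir2Δ, beside 15.8% and 11.6% of all genes.

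The summed level of those 60 genes was 3990 and 3886 CPM in WT at 400 µg/L and 11160 and 10580 CPM at 15 µg/L. In sir2Δ the sums were 11980 and 11690 CPM at 400 µg/L and 12180 and 11540 CPM at 15 µg/L. The 2 WT columns at 400 µg/L were the only low ones among the 8.

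KLLA0_A00132g, the second gene from its end, was at 31.4 and 21.3 CPM in WT at 400 µg/L and at 743 and 707 CPM at 15 µg/L, a rise of 27.3-fold. In sir2Δ it was at 669 and 646 CPM and at 779 and 741 CPM, and its change there, 0.21 log2 units, was not called (edgeR, adjusted p = 0.273). The interaction was -4.56 ± 0.19 (edgeR, adjusted p = 5.49e-11). Of the 10 genes with the lowest interaction, 8 were at rank 1 or 2. The other 7 of these, KLLA0_B00143g, KLLA0_F00154g, KLLA0_D00143g, KLLA0_E00133g, KLLA0_A00110g, KLLA0_C00132g and KLLA0_D20031g, had interactions between -4.33 and -4.05. Their WT means at 15 µg/L ran from 161 CPM for KLLA0_A00110g and 175 CPM for KLLA0_D20031g to 611 CPM for KLLA0_C00132g, with KLLA0_B00143g, KLLA0_D00143g, KLLA0_E00133g and KLLA0_F00154g between 524 and 532 CPM. KLLA0_A00132g, KLLA0_B00143g, KLLA0_C00132g, KLLA0_D00143g and KLLA0_E00133g have the same coding length, 1524 bases. KLLA0_A00110g and KLLA0_D20031g both have 1047 bases. Whether any of the 8 are near-identical copies that share reads was not tested, so they may not be separate measurements.

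**Figure D3:**
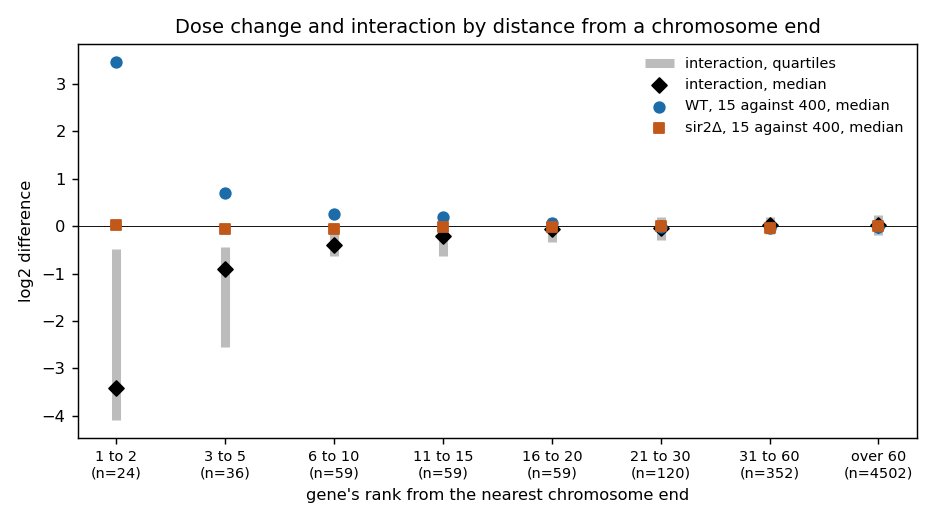
Median log2 difference by a gene's rank from the nearest chromosome end, for the change at 15 against 400 µg/L in WT (blue) and in sir2Δ (orange) and for the interaction (black, with grey bars from the lower to the upper quartile). At ranks 1 to 2 the median was 3.47 in WT, 0.02 in sir2Δ and -3.42 for the interaction, and at ranks over 60 these medians were -0.02, 0.01 and 0.02.

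The large lower interactions were spread over both the ends and the interior of the chromosomes. Of the 172 genes lower by at least 1 log2 unit, 42 were among the 15 genes nearest to an end, or 24.4% beside 3.41% of all genes tested. A further 124, or 72.1% beside 92.9% of all genes, were more than 30 genes away. Genes of mating, meiosis and spore formation were among them. The list called a-specific genes was named after roles in S. cerevisiae. Of its 6 members, 5 were lower in the interaction (83.3%, beside 9.71% of all genes), with a median of -1.52. Not every member had the levels that this name implies. With 400 µg/L, sir2Δ, the α strain, was called above WT for 3 members and below it for 1. The median difference was 0.43 log2 units. With 15 µg/L it was called above WT for 1 and below for 4, with a median of -0.57. BAR1, the protease that degrades α-factor, went from 8.28 and 7.54 CPM to 36.6 and 36 CPM in WT. In sir2Δ it was at 30.9 and 28.4 CPM at 400 µg/L and at 26.6 and 27.2 CPM at 15 µg/L, so that only the WT columns at 400 µg/L were low. STE2, the α-factor receptor, rose from 22.2 and 26.7 CPM to 66.4 and 68 CPM in WT. Its sir2Δ columns, at 19.9 to 21.3 CPM, were the lowest at both doses, and its interaction was -1.46 ± 0.15. The WT strain is the a strain and sir2Δ is the α strain, so mating type and SIR2 cannot be told apart here. None of the 4 α-specific genes was called. They include HMLALPHA1, which was at a very low level in the WT columns, so a change with dose in WT could hardly be measured for it.

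Of 32 genes of the mating pathway, 7 were lower in the interaction and none was higher, beside 9.71% and 7.5% of all genes. The subunits of the pheromone-coupled G protein were among the lower genes. STE4, the β subunit, was at 34.9 and 38.5 CPM in WT at 400 µg/L and at 296 and 285 CPM at 15 µg/L, and in sir2Δ at 121 and 114 CPM and at 182 and 183 CPM. The 4 groups did not overlap, and STE4 had an interaction of -2.35 ± 0.11. GPA1, the α subunit, had an interaction of -2.69 ± 0.16, and STE18, the γ subunit, -2.36 ± 0.27, the latter from levels of 1.32 to 12.1 CPM.

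Spore and meiosis genes are normally silent in growing haploid cells. Of 33 genes of middle and late sporulation, 12 were lower in the interaction (36.4%, beside 9.71% of all genes) and none was higher, beside 7.5%. In WT 15 of them rose, beside 15.8% of all genes, and in sir2Δ 1 rose, beside 11.6%. OSW2, needed for outer spore wall assembly, went from 14.9 and 14.1 CPM to 96.7 and 81.2 CPM in WT and was at 86.9 to 93 CPM in all 4 sir2Δ columns. AMA1, a meiotic activator of the anaphase-promoting complex, went from 2.41 and 1.61 CPM to 19.9 and 17.5 CPM in WT and was at 18.3 to 21.3 CPM in sir2Δ. RRT8, of spore wall assembly, had an interaction of -3.22 ± 0.16, and CRR1, a spore wall glycosidase, had -2.13 ± 0.16.

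In early meiosis 5 of 23 genes were lower and 1 was higher, beside 9.71% and 7.5% of all genes. IME1, the master regulator of meiosis, was at 13.7 and 15 CPM in WT at 400 µg/L and at 42.5 and 43.6 CPM at 15 µg/L. All 4 sir2Δ columns, at 42.2 to 43.9 CPM, lay within or next to the latter range. The interaction of IME1 was -1.61 ± 0.16, and those of ZIP2, a synapsis protein, and SPO22, a meiosis-specific protein, were -1.48 ± 0.17 and -1.22 ± 0.17.

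Smaller lists held further genes that were lower in the interaction, not all of which were called as rising in WT. Their shares stand beside 9.71% of all genes lower. In phosphate starvation, 5 of 18 genes were lower, led by SPL2, which inhibits low-affinity phosphate uptake, at -2.93 ± 0.14 and PHO92, an RNA-binding protein, at -2.41 ± 0.15. In thiamine and pyridoxine synthesis, 3 of 8 were lower, led by THI2, an activator of thiamine synthesis, at -2.13 ± 0.16. That count became 1 without sir2Δ replicate 2 at 400 µg/L, when THI4 and PDX3 lost their calls, 1 without library 1R and 5 without library 1. In nitrogen catabolism and permeases 8 of 27 were lower, among them the peptide transporter PTR2 at -1.10 ± 0.20. In the general stress list 5 of 18 were lower, among them the wall protein SPI1 at -1.20 ± 0.14 and the catalase CTT1 at -0.72 ± 0.12, and the chaperone HSP82 was higher at 0.86 ± 0.11. The 5 lower calls of the stress list became 3 without sir2Δ replicate 2 at 400 µg/L and 3 without library 1R. The median interaction of these lists lay between -0.32 and -0.14.

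The higher interactions were led by the genes that build ribosomes. Of the 135 tested genes of ribosome biogenesis, 111 were higher in the interaction (82.2%, beside 7.5% of all genes) and none was lower, with a median of 0.83. They made up 41 of the 77 genes higher by at least 1 log2 unit. Within the strains, 118 rose in sir2Δ at 15 µg/L, beside 11.6% of all genes, with a list median of 0.73. In WT 4 rose and 11 fell, beside 15.8% and 10.3% of all genes, with a median of -0.09. At 400 µg/L, 132 of the 135 were lower in sir2Δ than in WT, with a median of -1.48, beside 22.3% of all genes. At 15 µg/L 119 were still lower, with a median of -0.62, beside 16% of all genes lower and 30.7% called in either direction.

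The summed level of the 135 genes was 10840 and 10910 CPM in WT at 400 µg/L and 10610 and 9676 CPM at 15 µg/L. In sir2Δ the sums were 4457 and 4604 CPM at 400 µg/L and 6761 and 6661 CPM at 15 µg/L. The sir2Δ columns were thus below every WT column at both doses, by a smaller margin at 15 µg/L. The genes of this list are longer than most, with a median coding length of 1494 bases beside 1227 over all protein-coding genes tested. Without library 1, whose levels moved with length, 110 were called higher. Leaving it out did not remove the trend of the interaction with length. Over all 5 length bins the median interaction ran from -0.07 for the shortest genes to 0.07 for the longest. Without library 1 it ran from -0.23 to 0.15. The part of gene length in the values of this list was not tested.

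NOP4, a nucleolar protein of the large subunit, was at 106 and 86.2 CPM in WT at 400 µg/L and at 78.7 and 62.2 CPM at 15 µg/L. In sir2Δ it was at 18.7 and 19.5 CPM and at 40.9 and 40.4 CPM, so the strains did not overlap at either dose. It fell in WT and rose in sir2Δ, with an interaction of 1.54 ± 0.17 (edgeR, adjusted p = 8.14e-06). SAS10, of the small subunit processome, was at 59.7 and 68.6 CPM and at 59.8 and 52.8 CPM in WT and at 14.8 and 13.6 CPM and at 30.5 and 33 CPM in sir2Δ. Its rise in sir2Δ was called and its change in WT, -0.19, was not (edgeR, adjusted p = 0.203).

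RSA4, a large subunit assembly factor, had an interaction of 1.28 ± 0.14 and NOG2, a nuclear GTPase of the same pathway, 0.99 ± 0.11. The largest values of the list were on weakly expressed genes. NOP19 had an interaction of 1.80 ± 0.37 at 1.3 to 7.08 CPM, IMP3, of the U3 processome, 1.62 ± 0.31 at 4.65 to 21.7 CPM, and RRP1, of rRNA processing, 1.61 ± 0.28 at 3.88 to 24 CPM. CGR1, a nucleolar protein of rRNA processing outside the list, had 1.85 ± 0.39, and the gene next to it, CCM1, a mitochondrial RNA-binding protein, had 1.71 ± 0.24.

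Ribosomal protein genes were seldom called in the interaction. Of 53 genes of cytosolic ribosomal proteins none was higher in the interaction, beside 7.5% of all genes. In this list 3 were lower (5.66%, beside 9.71% of all genes), with a median of -0.08. Of 67 genes of mitochondrial ribosomal proteins 1 was higher (1.49%, beside 7.5% of all genes), with a median of 0.13. In WT 35 of them fell, beside 10.3% of all genes, and 16 fell in sir2Δ, beside 6.09%.

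**Figure D4:**
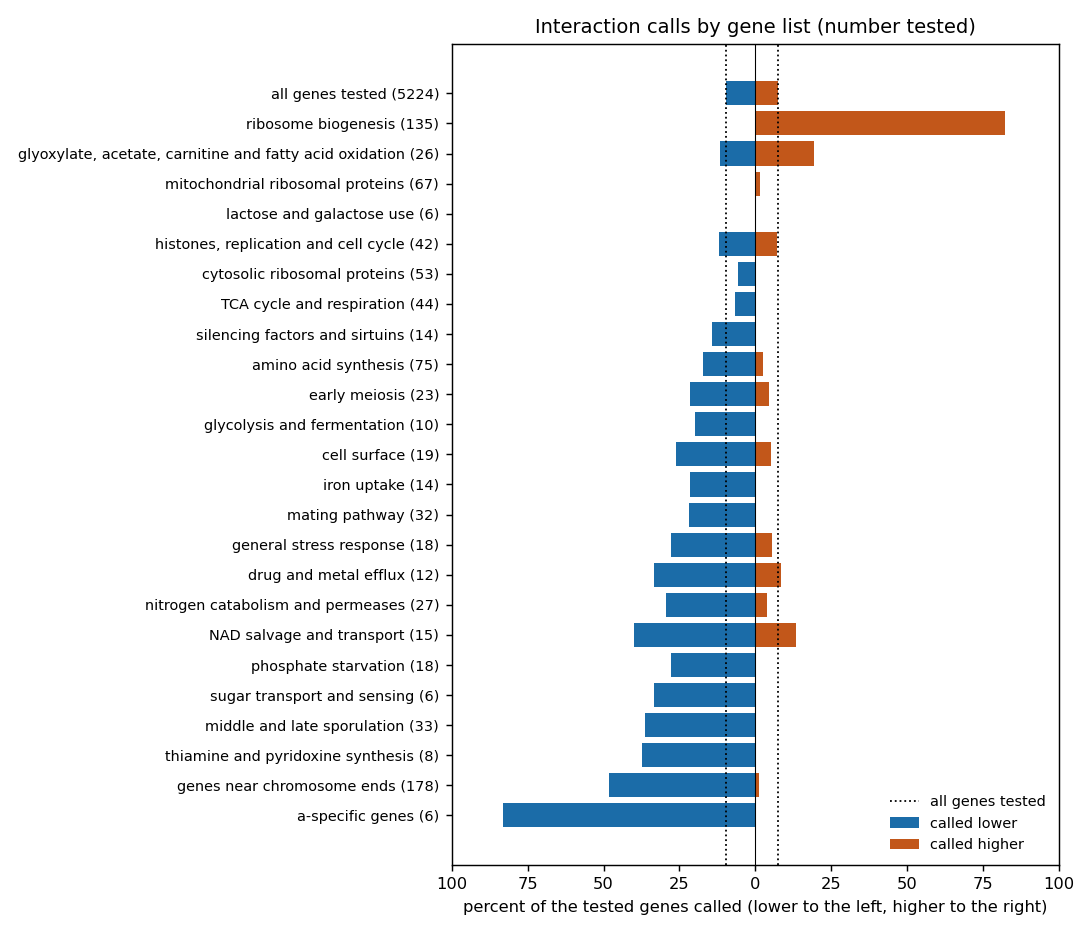
Percent of the tested genes in each list with at least 6 members that were called in the interaction, with lower calls to the left and higher calls to the right, and the number tested in brackets. Dotted lines mark the shares over all genes, 9.71% lower and 7.5% higher, and the longest bars are those of the a-specific genes to the left and of ribosome biogenesis, at 82.2%, to the right.

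A small set of genes was called in opposite directions in the strains and in the interaction. It held 52 genes, of which 25 rose in WT and fell in sir2Δ and 27 did the reverse. MEP3, an ammonium permease, was at 186 and 183 CPM in WT at 400 µg/L and at 98 and 111 CPM at 15 µg/L. In sir2Δ it went from 139 and 124 CPM to 310 and 333 CPM, above every WT column. The fall was to 0.568 of the level and the rise 2.45-fold, and the interaction was 2.11 ± 0.13 (edgeR, adjusted p = 4.83e-09).

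ACS1, an acetyl-CoA synthetase, had the highest interaction of the table, 3.02 ± 0.45 (edgeR, adjusted p = 0.00069). It fell from 175 and 181 CPM to 82.9 and 82.8 CPM in WT. In sir2Δ it went from 88.6 and 82 CPM to 202 and 443 CPM, so its 2 replicates at 15 µg/L differed more than those of any other group of this gene. KLLA0_B09064g, which has no symbol, fell from 283 and 259 CPM to 191 and 194 CPM in WT and rose from 661 and 648 CPM to 1730 and 2320 CPM in sir2Δ. In the list of glyoxylate, acetate, carnitine and fatty acid genes that holds ACS1, 5 of 26 were higher (19.2%, beside 7.5% of all genes), among them the carnitine acetyltransferases CAT2 at 0.97 ± 0.22 and YAT2 at 0.68 ± 0.15, and 3 were lower. CAT2 was at 61.5 and 98.6 CPM in sir2Δ at 15 µg/L, and without replicate 8, the higher of these, its interaction was 0.59. The count of 5 became 3 without that replicate and 3 without WT replicate 2 at 400 µg/L.

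Other extreme values rest on few reads in 1 strain. KLLA0_C03157g, with the lowest interaction, had 357, 171, 1526 and 1690 reads in the 4 WT columns, in the order 400 then 15 µg/L, and 12, 13, 2 and 1 reads in sir2Δ. KLLA0_B14575g had 373, 160, 1613 and 1733 reads in WT and 17, 9, 3 and 2 in sir2Δ. Both rose in WT, from 4.92 and 4.92 CPM to 47.5 and 47.9 CPM for the former and from 5.14 and 4.61 CPM to 50.2 and 49.1 CPM for the latter. The sir2Δ side of their interactions, -6.31 and -5.73, depends on the prior count of the fit, so these are not given as folds. KLLA0_C03157g and KLLA0_B14575g have the same coding length, 774 bases, and their levels in WT are close. Whether they are near-identical copies that share reads was not tested. KLLA0_C00396g, 14 genes from its end and among the 10 highest, had 15 or fewer reads in 3 of the WT columns and 139 in the summed WT replicate 1 at 400 µg/L. Without that replicate its interaction went from 2.13 to 0.48 and the call was lost. MSL1, a U2 snRNP protein also among the 10 highest, was at 0.753 to 3.17 CPM and lost its call without any 1 of 6 replicates.

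Some dose responses were called in both strains with no interaction call. There were 233 such genes, 134 that rose and 99 that fell, and for 226 of them the 95% interval of the interaction lay within 1 log2 unit of 0. GAL10, a UDP-galactose epimerase, was at 124 and 157 CPM in WT at 400 µg/L and at 56.4 and 52.6 CPM at 15 µg/L, and in sir2Δ at 279 and 285 CPM and at 113 and 98 CPM. It fell to 0.388 of its level in WT and to 0.374 in sir2Δ, and the interval of the interaction ran from -0.43 to 0.32. The galactokinase gene GAL1 and the transferase gene GAL7 also fell in both strains, with intervals from -0.19 to 0.33 and from -0.40 to 0.19. At 400 µg/L all 6 genes of the lactose and galactose list were higher in sir2Δ, beside 22.5% of all genes.

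The amino acid synthesis list changed alike in direction and less alike in size. Of 75 genes, 44 rose in WT, beside 15.8% of all genes, and 35 in sir2Δ, beside 11.6%, and 33 rose in both, as did 195 of the 5224 genes tested. The interaction was lower in 13 (17.3%, beside 9.71%) and higher in 2. HOM3, the aspartate kinase of threonine and methionine synthesis, rose from 178 and 174 CPM to 397 and 379 CPM in WT and from 215 and 216 CPM to 303 and 305 CPM in sir2Δ. Its groups did not overlap, and its interaction was -0.64 ± 0.09. ARG3, an ornithine carbamoyltransferase, rose in both strains with an interaction of -0.64 ± 0.12, and ARG2, which starts ornithine synthesis, rose in WT only as far as calls go, with -0.99 ± 0.13. PDH1, of propionate breakdown, rose 2.92-fold in WT and 2.40-fold in sir2Δ, and its interval ran from -0.87 to 0.30. Its sir2Δ replicates at 15 µg/L were at 82.2 and 142 CPM, and without the latter, replicate 8, its interaction of -0.28 became -0.73 and was called (edgeR, adjusted p = 0.0382).

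The libraries at 45 and 135 µg/L gave the same contrast over a smaller step in samples that the 15 against 400 comparison does not hold. There 107 genes were called, 2.05% of those tested, 81 lower (1.55%) and 26 higher (0.498%). Of the 81 lower, 60 were also lower at 15 against 400, beside 9.71% of all genes, and 3 were higher. Of the 26 higher, 3 were also higher at 15 against 400, beside 7.5% of all genes, and 11 were lower. The same direction thus held for 58.9% of the 107 calls and 7.01% of the 899, nearly all of them lower. In all, 14 were called in opposite directions. The 2 sets of calls come from 1 fit and share its estimate of the spread. TNA1 had an interaction of -1.48 ± 0.13 at 45 against 135, NPT1 -1.12 ± 0.11, STE4 -1.47 ± 0.11 and KLLA0_A00132g -2.94 ± 0.18, each called. The count of 107 rests on single libraries, since leaving out 1 replicate gave 45 to 205.

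Of the 172 genes lower by at least 1 log2 unit at 15 against 400, 53 were lower at 45 against 135 (30.8%, beside 1.55% of all genes), with a median of -0.57. Of the 77 higher by that size, 1 was higher, beside 0.498% of all genes, and the median was -0.10. In ribosome biogenesis 4 of 135 genes were lower there and none higher, with a median of -0.19, so the list median had the opposite sign over this step. At ranks 1 to 5 from an end 23 of 60 were lower, beside 1.55% of all genes. At ranks 6 to 15, 2 of 118 were lower and 3 were higher, with a median of 0.001. The a-specific genes had no call there, and BAR1 had an interaction of -0.19 ± 0.17.

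Across the 4 levels the outermost genes of the chromosomes held their level in sir2Δ and climbed in WT. Relative to WT at 400 µg/L, the median log2 level of the 60 genes was 1.82 to 1.88 in the sir2Δ columns at 400 µg/L and 1.66 to 1.70 at 15 µg/L. In WT it was 0.22 and 0.27 at 135 µg/L, 0.72 and 0.64 at 45 µg/L and 1.56 and 1.55 at 15 µg/L. The ribosome biogenesis genes went the other way, with -1.42 and -1.37 in sir2Δ at 400 µg/L, -1.15 and -1.16 at 135, -1.06 and -0.995 at 45 and -0.72 and -0.68 at 15 µg/L, while the WT columns stayed between -0.16 and 0.18. Within each strain the replicates of a level lay closer together than the sir2Δ columns at 400 lay to those at 15 µg/L for the ribosome biogenesis list.

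**Figure D5:**
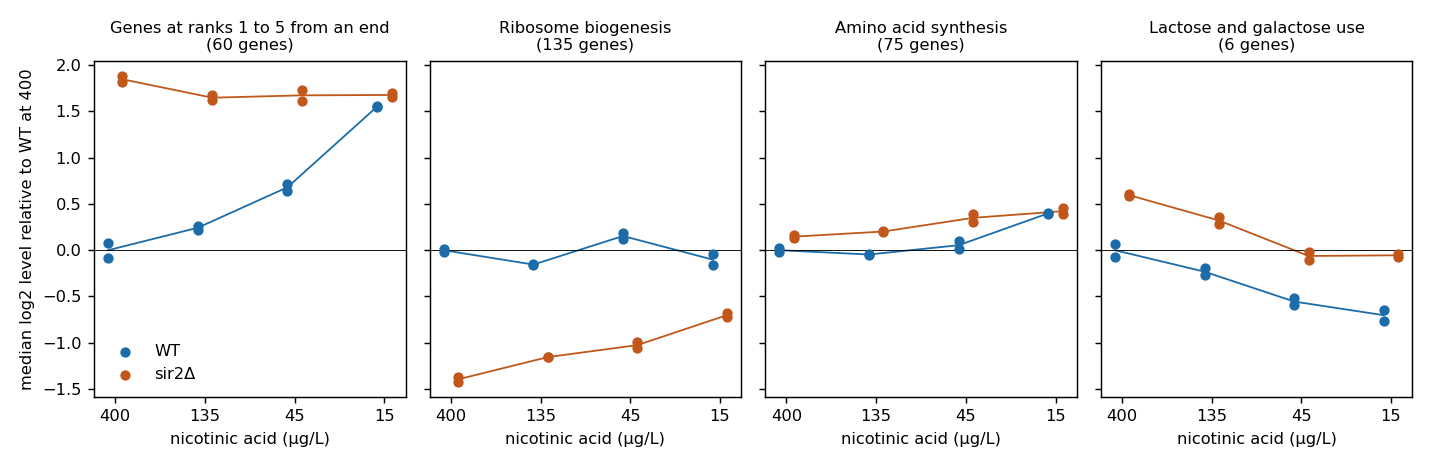
Median log2 level of the genes of 4 lists relative to their mean in WT at 400 µg/L, against the nicotinic acid level (categories on the x axis), with 1 point per column and lines through the mean of the 2 columns. The outermost genes climb in WT to 1.56 and 1.55 at 15 µg/L, and the ribosome biogenesis genes climb in sir2Δ from -1.42 and -1.37 to -0.72 and -0.68. From 400 to 15 µg/L the other lists move in the same direction in both strains. At 45 µg/L the amino acid synthesis genes were at 0.395 and 0.305 in sir2Δ and still at 0.01 and 0.098 in WT.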

How the data were processed

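The deposited table holds raw read counts per gene, per the file headers, and was used as deposited for all results. Per the submitters' processing notes the tools named are cutadapt, Bowtie2, SAMtools and featureCounts, besides FastQC, MultiQC and DESeq2. No version or genome build, nor how strand and multiply mapped reads were treated, is stated in the sources used here, so overlapping, antisense and near-identical genes may share reads. The deposited normalized table was not used.

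Counts of 16 columns (8 groups of 2) were fitted with edgeR 4.0.16 in R 4.3.3 by the robust quasi-likelihood test, after filterByExpr at a minimum count of 10 (5224 genes) with TMM factors, a prior count of 0.125, 8 residual degrees of freedom and a common biological coefficient of variation of 0.0857. The SE is the log2 fold change divided by the square root of its F value. DESeq2 1.42.0 and limma-voom (limma 3.58.1) were alternatives. The procedure was tested on simulated data. A count of 0 allows up to 3 reads, 0.0784 to 0.122 CPM, which covers counting error only.

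Symbols and gene order came from a RefSeq gene table for ASM251v1. It matched each of the 5335 identifiers and gives 4043 of them a symbol. No coordinates are given because the build of the counts is not named. The members and the 26 gene lists were chosen with earlier results of these data known. Lists are described by counts and medians, with no set test, and hold only genes with a matching symbol or, for chromosome ends, a position.

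Named genes were SIR2, TNA1 and NPT1, the called salvage genes, the 10 lowest and 10 highest called interactions over a mean of 1 CPM, up to 4 called members per list by adjusted p, and 6 genes each called in opposite and in the same directions. GAL1, GAL7, HMLALPHA1 and the neighbours of URH1 were named after their values were seen. Alternatives changed the scaling, the test, the filter, the columns in the fit, the treatment of libraries 1 and 1R, a replicate block, each replicate in turn, the number of genes per end and a minimum size.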

Additional observations from a re-analysis of the deposited data

Results flagged for a closer look

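The interaction is itself a test of a difference between the strains, and 899 genes passed it. Of the named genes, 11 with an interaction of at least 1 log2 unit were called in opposite directions in the strains, which is why they are listed for a closer look.

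Those that fell in WT and rose in sir2Δ at 15 µg/L were ACS1 (interaction 3.02), KLLA0_B09064g (2.12), MEP3 (2.11), CGR1 (1.85), NOP19 (1.80) and NOP4 (1.54). ACS1 remained called in all 19 alternatives it was refitted under, with values from 2.35 to 3.48. CGR1 lost its call when libraries 1 and 1R were kept as separate columns, at an adjusted p of 0.0651 in edgeR.

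Those that rose in WT and fell in sir2Δ were KLLA0_C03157g (-6.31), KLLA0_B14575g (-5.73), KLLA0_B14553g (-3.12), KLLA0_F01012g (-2.34) and DUR3, a urea permease (-1.04). KLLA0_F01012g went from 8.72 and 9.39 CPM to 33.1 and 37.5 CPM in WT and from 83.1 and 93.3 CPM to 69.4 and 67 CPM in sir2Δ. KLLA0_C03157g, KLLA0_B14575g and KLLA0_B14553g had at most 17 reads in any sir2Δ column at either dose, beside 160 to 1733 in the WT columns. Their fall in sir2Δ is thus a difference between few reads in a strain where they were barely detected. Whether their low level there goes with SIR2 or with mating type cannot be told apart here. In each, the sir2Δ columns at 400 µg/L held more reads than those at 15 µg/L. The same held for SIR2, with 59 and 77 against 28 and 23 reads. KLLA0_B14553g, with 0 reads in 1 sir2Δ column at 15 µg/L, lost its call without sir2Δ replicate 2 at 400 µg/L (edgeR, adjusted p = 0.0574) or replicate 8 at 15 µg/L (adjusted p = 0.0771), and its value ranged from -6.99 to -2.09 over the alternatives. The part of these few reads in the calls was not tested.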

How the results depend on the processing

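The interaction at 15 against 400 µg/L gave 801 to 1198 calls under DESeq2 size factors, upper-quartile factors, DESeq2's Wald test, limma-voom, either other filter, a fit of the 4 groups alone, the replicate block and without library 1. It gave 572 without library 1R (245 higher, 327 lower) and 570 with libraries 1 and 1R as separate columns (243 higher, 327 lower), all of them among the 899. Calls of at least 1 log2 unit came to 249 (77 higher, 172 lower). Upper-quartile factors gave 619 higher. Leaving out each replicate in turn gave 643 to 877 calls, 263 to 385 higher and 376 to 496 lower.

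At 45 against 135 µg/L the 107 calls became 239 with DESeq2's Wald test, 46 without library 1R, 39 with separate columns and 37 at 1 log2 unit or more, and 45 (without sir2Δ replicate 3 at 135 µg/L) to 205 (without WT replicate 5 at 45 µg/L) with 1 replicate left out. The 1362 calls in WT became 218 at 1 log2 unit or more and 841 (without replicate 7 at 15 µg/L) to 1405 with 1 replicate left out. The 922 calls in sir2Δ became 484 without library 1R, 444 with separate columns, 76 at 1 log2 unit or more and 469 to 571 with 1 replicate left out, so each of the 4 sir2Δ columns moved that count by over 1.5 times. The cause was not tested. A lone replicate is assumed to vary like the other groups.

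The correlation of same-numbered deviations between the strains was -0.0935 at 400, -0.0446 at 135, 0.455 at 45 and 0.227 at 15 µg/L. It was thus positive at some levels and not at others, and the numbers were taken as shared only. With the replicate block 1159 genes were called at 15 against 400 µg/L (505 higher, 654 lower), 897 of them among the 899, and 207 at 45 against 135 µg/L.

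In ribosome biogenesis 87 to 118 genes were higher and near the ends 67 to 98 were lower in all settings, while the share near the ends was 60.4% with 8 genes per end and 32.2% with 30. The named genes gave 1831 values with the same call, 123 with the call lost and 3 with a call gained, and no call reversed. With 2 replicates per group, a missed call does not show that a gene did not respond.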

Other observations

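Some of the large lower interactions away from the chromosome ends lay next to each other. Of the 124 genes lower by at least 1 log2 unit and more than 30 genes from an end, 22 (17.7%) had an adjacent gene that was also lower by that size, beside 212 of the 4730 other genes in that region (4.48%). They formed 9 pairs and 1 run of 4 genes. The run held KLLA0_C06677g, KLLA0_C06699g, URH1 and DIT2, the last of which takes part in spore wall maturation. KLLA0_C06677g went from 142 and 121 CPM to 1960 and 2010 CPM in WT and from 1240 and 1210 CPM to 1660 and 1750 CPM in sir2Δ, an interaction of -3.44. KLLA0_C06699g had -3.12, URH1 -1.04 and DIT2 -1.27, so the size varied along the run. At 400 µg/L all 4 were higher in sir2Δ than in WT. Reads that cross gene borders could enter adjacent counts, and this was not tested.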
